A study of Mus musculus with 32 samples.

Results

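The genes described here are Atf4, Ddit3, Asns, Trib3, Chac1, Psat1, Phgdh, Shmt2, Mthfd2 and Sesn2, which belong to the integrated stress response. They were listed by name as genes of the ATF4 pathway and make up 10 of the 31053 genes counted in each library. Their levels were compared between cultures with and without doxycycline (dox) at each day, because dox can slow mitochondrial translation. All 10 passed the filter on low counts, which kept the 15280 genes with a level of at least 1 CPM (reads scaled to the total that fell on genes in the library) in at least 4 libraries. Levels printed below are CPM after edgeR's TMM scaling, which multiplies that total by a factor per library (0.946 to 1.05). The filter and the CPM given for 3 counts use the plain total. The alternative named library size only leaves the TMM factor out.

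The RNA came from C1, a mouse embryonic stem cell (ESC) line without endogenous β-catenin that was infected with lentiviruses for a dox-dependent transactivator and for a constitutively active β-catenin fused to mCherry and to a destabilizing domain. The transactivator is driven by the EF1a promoter and the fusion by TRE3G. Dox turns on the fusion gene and trimethoprim (TMP) stabilizes its protein. The 32 libraries form 8 groups of 4, which the labels call biological replicates. At day 0, C1 cells had received 10 μM TMP alone, whereas C1M and C1H cells had received 100 ng/mL dox with 10 μM TMP and were sorted for moderate and high mCherry. At day 4 of monolayer differentiation in NDiff227, C1T cells had never received dox and were kept in TMP, C1MV and C1HV cells came from the moderate and high sorts and were kept in DMSO without inducers, and C1MDT and C1HDT cells came from the same sorts and were kept in both inducers. Every group that had dox also had the fusion induced and was sorted on mCherry, so that against C1 and C1T dox, β-catenin and the sort cannot be told apart, and for C1MV and C1HV against C1T neither can TMP. Within a sort at day 4 the groups differed in dox, TMP and β-catenin, which cannot be told apart, since TMP was absent from C1MV and C1HV only. C1M and C1H had the same dox and TMP and differed in the sort. The labels describe growth in serum with LIF before the sort, while the methods of the study describe 2i with LIF.

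In the integrated stress response, kinases that sense amino acid shortage, unfolded protein, heme shortage or viral RNA phosphorylate the translation factor eIF2. General translation then slows while the mRNA of the transcription factor ATF4 is translated more, and ATF4 turns on genes of amino acid supply together with regulators that end the response or lead to cell death. Dox binds bacterial ribosomes and can slow the related ribosomes of mitochondria, and mitochondrial stress is known to reach ATF4. Since ATF4 is set largely by translation, the level of Atf4 mRNA is no measure of ATF4 protein.

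ATF4 binds with C/EBP partners to an element whose core reads TGATGNAA. This core was searched on both strands in the windows of RefSeq (build GRCm38.p6) that run from 250 bases before to 50 bases after each gene start. Windows were found for 10 of the 10 genes, with a second one for Psat1, and the core stood in 3 of these 11 windows, those of Asns, Trib3 and Chac1. It stood in 1304 of all 32851 windows (3.97%). The windows of these 3 genes, chr6:7693160-7693459 (minus strand) for Asns, chr2:152344011-152344310 (minus strand) for Trib3 and chr2:119350992-119351291 (plus strand) for Chac1, are shown because Trib3 and Chac1 were lower at day 4 where dox was kept and Asns did not pass the test there. One of the Psat1 windows, chr19:15925010-15925309 (minus strand), is shown for comparison, because Psat1 was higher with dox at both days and the core was not in either of its windows. Capitals mark the core, which reads on the other strand in Trib3 and Chac1.
Asns: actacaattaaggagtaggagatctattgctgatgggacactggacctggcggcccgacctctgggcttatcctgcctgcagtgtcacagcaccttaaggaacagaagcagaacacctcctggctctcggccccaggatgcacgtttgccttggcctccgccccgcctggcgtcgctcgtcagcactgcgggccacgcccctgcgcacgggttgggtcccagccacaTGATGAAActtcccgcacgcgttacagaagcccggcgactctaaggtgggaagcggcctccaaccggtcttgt
Trib3: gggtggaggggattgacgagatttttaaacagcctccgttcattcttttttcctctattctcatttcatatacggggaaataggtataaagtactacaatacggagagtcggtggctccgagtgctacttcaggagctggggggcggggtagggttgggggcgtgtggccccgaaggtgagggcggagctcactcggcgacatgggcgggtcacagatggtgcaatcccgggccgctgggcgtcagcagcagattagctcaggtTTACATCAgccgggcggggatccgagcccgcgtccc
Chac1: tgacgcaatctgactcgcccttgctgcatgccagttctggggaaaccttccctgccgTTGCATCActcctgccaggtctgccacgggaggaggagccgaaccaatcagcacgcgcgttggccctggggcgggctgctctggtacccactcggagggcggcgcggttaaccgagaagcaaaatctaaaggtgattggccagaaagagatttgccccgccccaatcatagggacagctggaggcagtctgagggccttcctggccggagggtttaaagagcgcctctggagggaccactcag
Psat1: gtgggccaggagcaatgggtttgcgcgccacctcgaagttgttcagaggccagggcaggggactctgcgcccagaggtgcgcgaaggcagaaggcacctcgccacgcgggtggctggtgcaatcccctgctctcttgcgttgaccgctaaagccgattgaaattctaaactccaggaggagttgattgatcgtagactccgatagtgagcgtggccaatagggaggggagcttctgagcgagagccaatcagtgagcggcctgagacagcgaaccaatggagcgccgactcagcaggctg
The core began at base 228 of the 300 in Asns, at base 265 in Trib3 and at base 58 in Chac1. A match describes letters in these windows only, and binding was not measured.

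Between 1366951 and 3648787 reads fell on genes per library (median 2402470), and 3 counts came to between 0.822 and 2.19 CPM. The libraries were made with QuantSeq, which reads the 3′ end of a transcript, so that CPM are not scaled by transcript length and can be set side by side between genes. The 8 pluripotency markers (Pou5f1, Sox2, Nanog, Zfp42, Esrrb, Klf4, Tfcp2l1 and Tbx3) summed to between 4601 and 6387 CPM in the day 0 libraries and to between 538 and 1545 CPM at day 4, with none of the 8 at 0 throughout a group. Reads assigned to Ctnnb1, the gene of β-catenin, averaged 7.81 CPM in C1, 12.2 in C1M and 41.1 in C1H, and at day 4 between 6.21 and 9.74 CPM in C1T, C1MV and C1HV against 29.2 in C1MDT and 30.8 in C1HDT.

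The 10 genes spanned a wide range of levels. Atf4 (ENSMUSG00000042406), the transcription factor of the pathway, was the most abundant, with group means from 1703 CPM in C1H to 2965 CPM in C1T, a 1.74-fold range. Ddit3, which encodes the cell death regulator CHOP, ranged from 329 to 609 CPM (1.85-fold), and Asns, which encodes asparagine synthetase, from 188 to 414 CPM (2.21-fold). Both were lowest in C1T, the group in which Atf4 was highest. Phgdh, the gene of the enzyme that opens serine synthesis, was the least abundant, at 2.05 to 13.5 CPM, and rested on between 1 and 43 reads per library. Of the 251 words of 50 bases in the last 300 bases of its transcript, 88 (35.1%) also occur in annotated transcripts of other genes, against 0 for each of the other 9 genes. Only reads with 1 alignment were counted, so the level of Phgdh leaves out reads that such copies share and is uncertain. Ddit3 has 2 entries in the annotation, and the values are those of ENSMUSG00000025408, since the other entry held 0 reads.

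**Figure D1:**
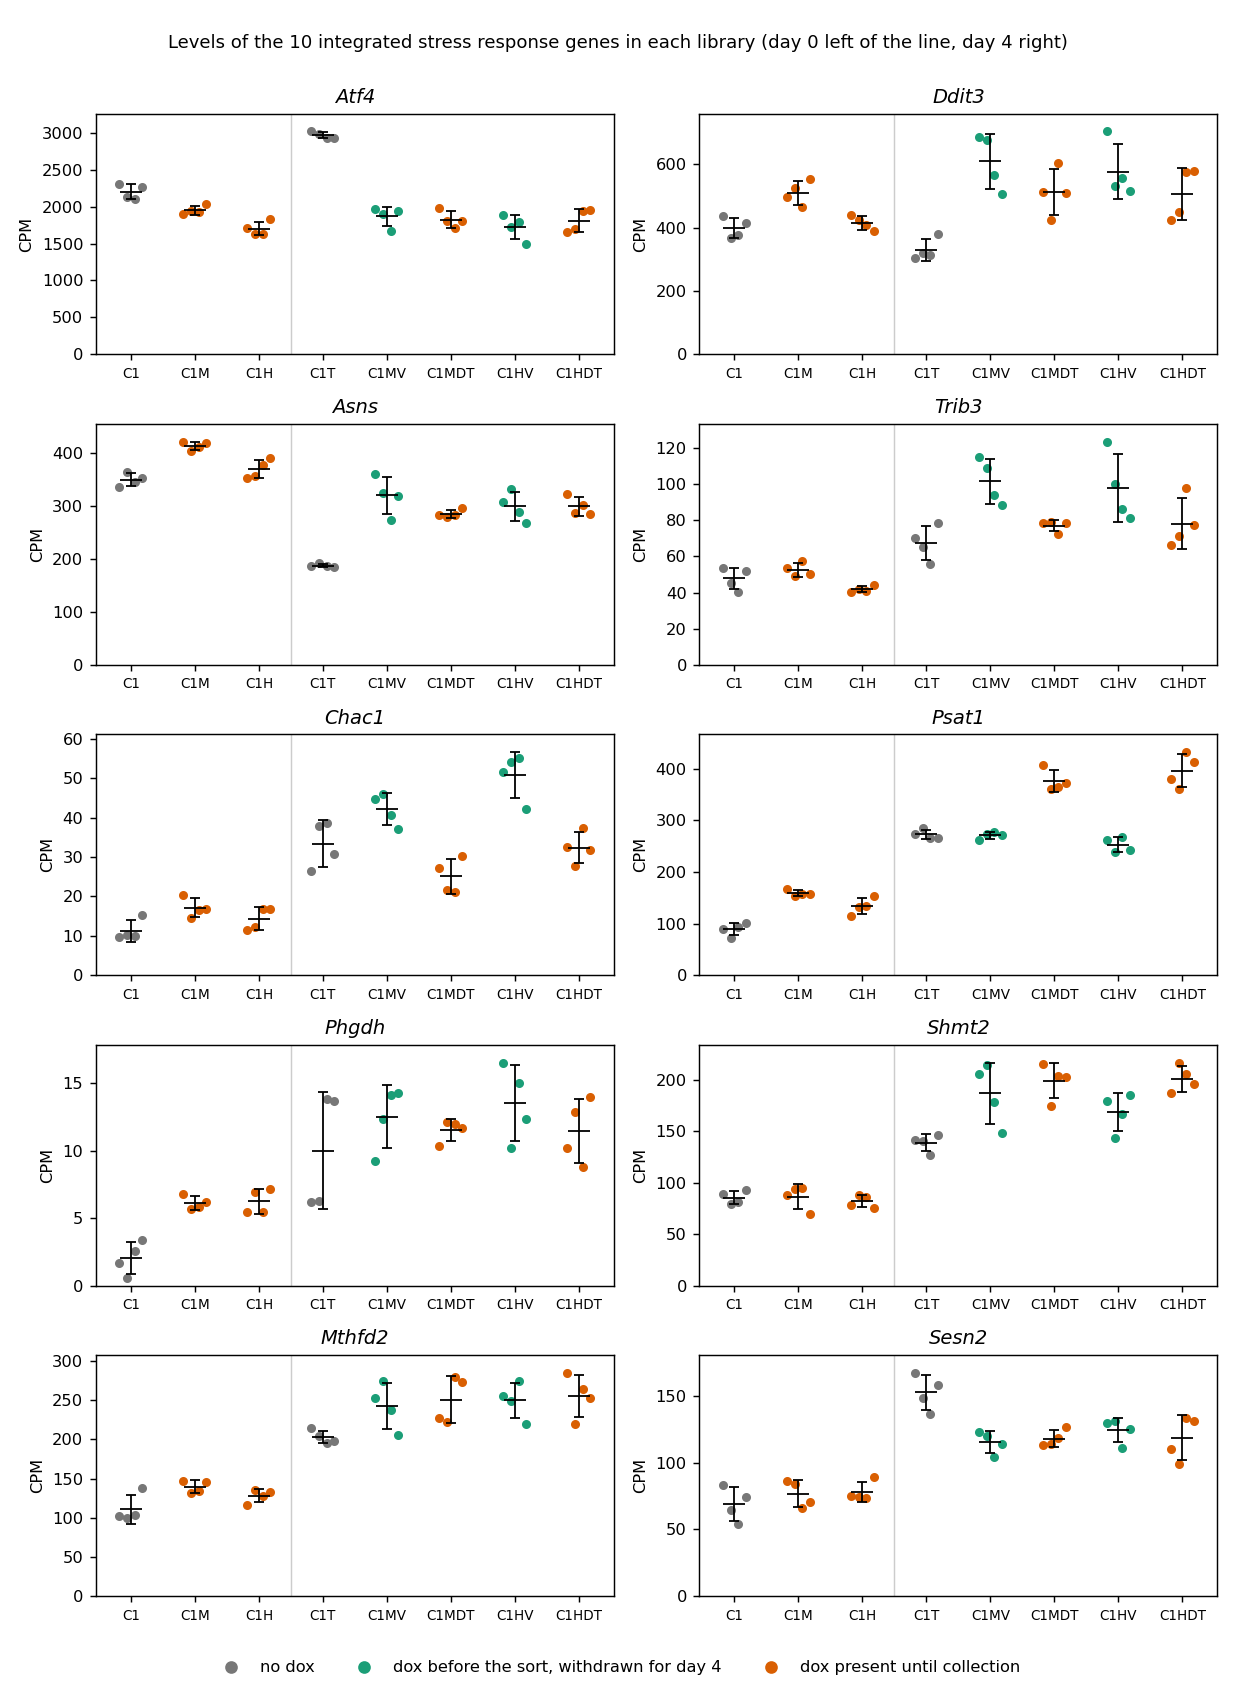
Levels in CPM (linear axis from 0) of the 10 genes in each of the 32 libraries, by group (grey without dox, green with dox withdrawn, orange with dox until collection), with black bars for the mean ± SD of 4 libraries. Atf4 was highest in C1T (2965 CPM) and Asns lowest there (188 CPM), Psat1 stood higher in C1MDT and C1HDT than in any other group, and Chac1 was highest in C1HV (50.7 CPM) and C1MV (42.1 CPM).

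The first comparison asked whether cells with dox at day 0 differed from cells without it. Psat1 and Phgdh, both genes of serine synthesis, rose in C1M and in C1H, while Atf4 fell in both. In C1M, 6 of the 10 genes rose and 1 fell, and of all 15280 genes tested 14.3% rose and 12.0% fell. In C1H, 2 of the 10 rose and 1 fell, where 13.8% and 12.1% of all genes did. All tests are edgeR's quasi-likelihood test with Benjamini-Hochberg adjustment over all genes tested. Scaling by library size only moved the median of all genes from 0.056 to 0.119 on the log2 scale in C1M and from 0.041 to 0.120 in C1H, and the share of called genes that were higher from 54.4% to 64.5% and from 53.4% to 66.4%.

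Atf4 stood at 2307, 2133, 2097 and 2268 CPM in the 4 C1 libraries, at 1895, 1942, 1930 and 2036 CPM in C1M and at 1711, 1635, 1636 and 1829 CPM in C1H. The groups did not overlap, and every C1H library lay below every C1M library, which lay below every C1 library. Atf4 fell by 0.37 on the log2 scale in C1H (SE 0.063, adjusted p = 6.85e-07) and by 0.17 in C1M (SE 0.063, adjusted p = 0.0282 by edgeR). The call in C1M was lost without C1 replicate 4 (adjusted p = 0.0743), without C1M replicate 1 (0.0514), with library size only (-0.11, adjusted p = 0.169) and without the filter on low counts (0.0509).

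The aminotransferase gene Psat1, which acts in the serine pathway after Phgdh, gave 89.3, 73.0, 93.4 and 101 CPM in C1, 167, 153, 158 and 158 CPM in C1M and 115, 133, 135 and 154 CPM in C1H. All libraries with dox lay above all C1 libraries. The log2 fold change was 0.82 in C1M (SE 0.089, adjusted p = 2.33e-14) and 0.58 in C1H (SE 0.090, adjusted p = 4.66e-08). Phgdh had 4, 1, 5 and 7 reads in the C1 libraries against 15 to 18 in C1M and 15 to 20 in C1H. Its CPM were 1.68, 0.566, 2.59 and 3.35 in C1 and 5.45 to 7.14 over the 8 libraries with dox, without overlap. The log2 fold change of Phgdh was 1.53 in C1M (SE 0.39, adjusted p = 0.00129) and 1.56 in C1H (SE 0.39, adjusted p = 0.000918).

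Smaller rises passed the test in C1M only, which by itself does not show a difference between the sorts. Asns rose by 0.24 on the log2 scale (SE 0.072, adjusted p = 0.00581), with 405 to 421 CPM in C1M against 337 to 364 CPM in C1. Mthfd2, the gene of a mitochondrial folate enzyme, rose by 0.33 (SE 0.093, adjusted p = 0.00405), although its highest C1 library (138 CPM) lay within the C1M range of 132 to 147 CPM. In C1H Mthfd2 was at 0.21 (adjusted p = 0.0945) and passed without C1 replicate 4 (0.0103) and with library size only (0.0132), with an adjusted p of up to 0.335 when another library was left out. Chac1, whose enzyme breaks down glutathione, rose by 0.59 (SE 0.21, adjusted p = 0.0228) from 9.65, 10.2, 9.86 and 15.3 CPM in C1 to 20.4, 14.5, 16.6 and 16.9 CPM in C1M. Ddit3 rose by 0.35 (SE 0.12, adjusted p = 0.0325), from 369 to 438 CPM in C1 to 466 to 555 CPM in C1M. Several of these calls were lost when 1 library was left out, while the direction held. Over these fits the log2 fold change ran from 0.20 to 0.25 for Asns, from 0.49 to 0.78 for Chac1 and from 0.30 to 0.38 for Ddit3. The call of Asns was lost without C1 replicate 1 (adjusted p = 0.054). That of Chac1 was lost without C1 replicate 1, 2 or 3 or C1M replicate 1, with adjusted p up to 0.114. That of Ddit3 was lost without C1 replicate 2, 3 or 4 or C1M replicate 1, 2 or 4, with adjusted p up to 0.106.

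The other genes did not pass the test at day 0 in either sort. Trib3, whose pseudokinase restrains ATF4, had log2 differences of 0.13 in C1M and -0.20 in C1H. Shmt2, the gene of the mitochondrial serine hydroxymethyltransferase, had 79.2 to 92.8 CPM in C1 and 69.3 to 95.1 CPM over the 8 libraries with dox. For Shmt2 in C1M an interval of 2 SE on either side of the estimate ran from -0.19 to 0.22 on the log2 scale. Sesn2, which encodes the stress-induced TORC1 inhibitor sestrin 2, had log2 differences of 0.14 in C1M and 0.16 in C1H, with adjusted p of 0.369 and 0.277.

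When both sorts were pooled against C1, 5 of the 10 genes rose and 1 fell, and 16.3% of all genes tested rose and 14.4% fell. These were Psat1 (0.70, SE 0.079), Phgdh (1.55, SE 0.35), Chac1 (0.46, SE 0.19, adjusted p = 0.0462), Mthfd2 (0.27, SE 0.083) and Asns (0.16, SE 0.063, adjusted p = 0.0393), with Atf4 lower by 0.27. The pooled call of Asns was lost without any 1 of the 12 libraries (adjusted p 0.0621 to 0.219). That of Chac1 was lost without C1 replicate 1, 2 or 3, C1H replicate 3 or 4 or C1M replicate 1, 3 or 4 (adjusted p up to 0.207) and also with DESeq2, without the filter and in a fit of these groups alone. That of Mthfd2 was lost without C1 replicate 1, 2 or 3 (adjusted p up to 0.0914). Ddit3, at 0.20 (SE 0.11, adjusted p = 0.157 by edgeR), passed upward with library size only (0.0491), without the filter (0.0155) and in a fit of these groups alone (0.00251). Among all called genes 53.2% were higher, and 64.5% with library size only. The pluripotency markers summed to 6165 to 6387 CPM in C1 and to 4601 to 5009 CPM with dox, and the 13 protein-coding genes of the mitochondrial genome, of which 1 was at 0 throughout, summed to 21450 to 26459 CPM in C1 and to 19993 to 25326 CPM with dox. The 5 endoderm markers (Gata4, Gata6, Sox17, Sox7 and Foxa2) summed to 6.22 to 12.2 CPM in C1 and to 14.4 to 21.3 CPM with dox, the 4 mesoderm markers (T, Mixl1, Kdr and Eomes) to 53.2 to 60.2 CPM and to 32.3 to 46.0 CPM, and the 5 fibroblast markers (Col1a1, Col1a2, Col3a1, Thy1 and Postn, 1 of them at 0 throughout each group) to 6.71 to 8.61 CPM and to 12.6 to 16.6 CPM. Only 3 fibroblast markers passed the filter. Of these, 1 rose and 0 fell in the pooled comparison, and 1 rose and 1 fell in C1H against C1, where 13.8% and 12.1% of all genes did. The 4 neural markers (Sox1, Pax6, Nes and Zic1) at 31.1 to 38.3 CPM in C1 and 25.6 to 38.6 CPM with dox, the 4 markers of the formative state (Fgf5, Pou3f1, Otx2 and Dnmt3b) at 90.9 to 131 CPM and 98.9 to 144 CPM, and the mitochondrial genes overlapped between C1 and the libraries with dox, and the other 4 lists did not. Their part in the day 0 changes was not tested, and in RNA pooled from many cells fewer cells of a type and less RNA per cell cannot be told apart.

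**Figure D2:**
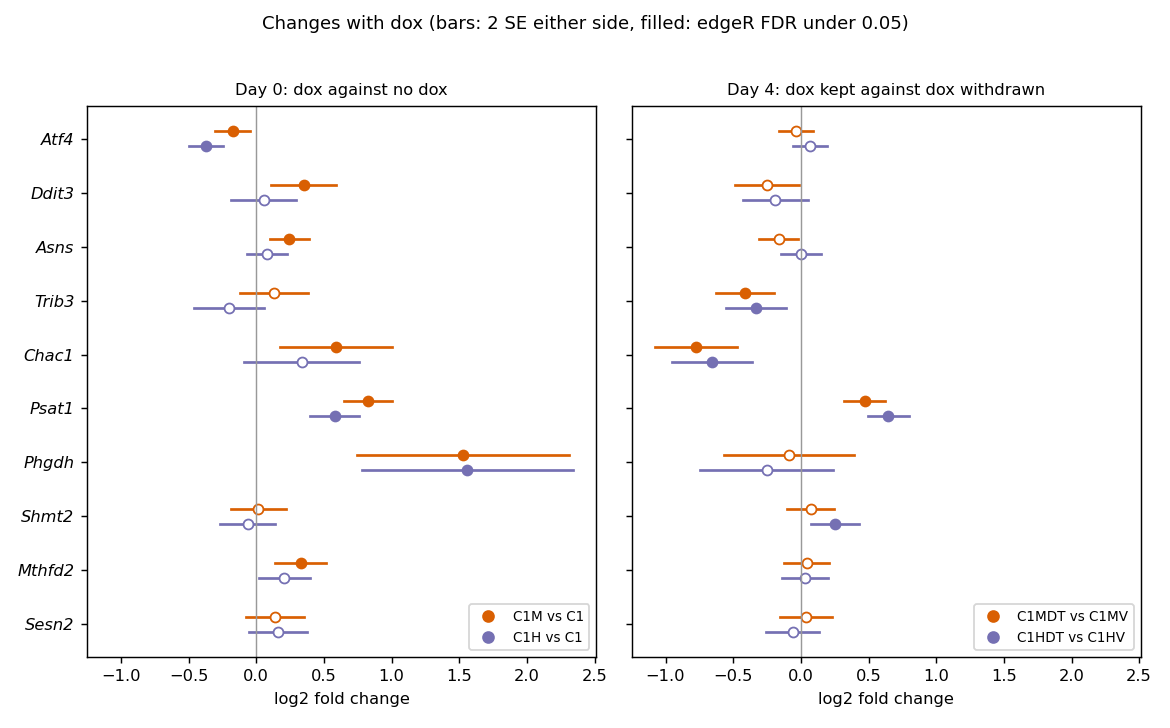
Log2 fold change (x axis) of each gene with dox, at day 0 against C1 (left) and at day 4 against cells of the same sort in which dox was withdrawn (right), with lines of 2 SE on either side and filled points where the edgeR adjusted p was under 0.05. Psat1 was higher with dox in all 4 comparisons (0.47 to 0.82), whereas Chac1 was at 0.59 and 0.34 at day 0 and at -0.77 and -0.66 at day 4.

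C1H and C1M cells both had dox and differed in mCherry. In C1H vs C1M no gene of the 10 passed the adjusted threshold in the edgeR fit of all groups, where 1.77% of all genes did. At an unadjusted p under 0.05 there were 5 (Atf4, Ddit3, Asns, Trib3 and Psat1), against 12.5% of all genes. DESeq2 called 2, Atf4 and Psat1, of the 8 to which it gave an adjusted p, against 6.32% of all genes with one. All 5 were lower in C1H, by 0.16 (Asns) to 0.33 (Trib3) on the log2 scale. Psat1 passed without C1H replicate 4 (adjusted p = 0.0393), with an adjusted p of up to 0.454 when another library was left out. In an edgeR fit of only these 2 groups Ddit3 (-0.28, adjusted p = 0.000671) and Atf4 (-0.19, adjusted p = 0.00923) passed, where 4.16% of all genes did. Without the filter on low counts Ddit3 passed (adjusted p = 0.0226), where 1.28% of all genes did. In 4 of them (Atf4, Ddit3, Asns and Trib3) each C1H library lay below each C1M library, an arrangement found in 4.57% of all genes tested. Trib3 gave 53.5, 48.9, 57.3 and 50.3 CPM in C1M and 40.5, 42.2, 40.7 and 44.1 CPM in C1H.

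At day 4, the comparison within each sort asked whether cells kept in dox and TMP differed from cells from which both had been withdrawn. Chac1 and Trib3 were lower where dox was kept and Psat1 was higher, in both sorts, while Atf4 and Asns did not pass the test in either. In the moderate sort Asns was at -0.16 (SE 0.073, adjusted p = 0.132 by edgeR). Leaving out 1 library at a time gave from -0.24 without C1MV replicate 3, where it passed (adjusted p = 0.0302), to -0.09 without C1MV replicate 1 (adjusted p = 0.533). Ddit3, at -0.25 there (adjusted p = 0.182), passed without the filter on low counts (0.0174). In the moderate sort 1 of the 10 genes rose and 2 fell, where 6.64% and 5.98% of all genes tested did. In the high sort 2 rose and 2 fell, against 9.06% and 6.89% of all genes, where 56.8% of the called genes were higher, and 45.2% with library size only.

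Chac1 stood at 44.7, 46.1, 40.7 and 37.1 CPM in C1MV and at 27.1, 21.7, 21.2 and 30.3 CPM in C1MDT. In the high sort it stood at 51.6, 54.0, 55.0 and 42.3 CPM in C1HV and at 32.6, 27.7, 37.3 and 31.6 CPM in C1HDT. In each sort all libraries with dox kept lay below all libraries with dox withdrawn. Chac1 fell by 0.77 on the log2 scale in the moderate sort (SE 0.15, adjusted p = 4.16e-05) and by 0.66 in the high sort (SE 0.15, adjusted p = 0.000342). Trib3 gave 115, 109, 93.7 and 88.4 CPM in C1MV and 78.4, 78.8, 72.6 and 78.4 CPM in C1MDT, again without overlap, and fell by 0.41 (SE 0.11, adjusted p = 0.00324). In the high sort the ranges of Trib3 overlapped (81.3 to 123 CPM in C1HV and 66.3 to 98.0 CPM in C1HDT). It fell there by 0.33 (SE 0.11, adjusted p = 0.0256), a call lost without C1HDT replicate 1 or 2 or C1HV replicate 1 or 2, with adjusted p up to 0.253.

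Psat1 was at 262, 273, 278 and 271 CPM in C1MV and at 408, 361, 365 and 373 CPM in C1MDT. In the high sort it was at 262, 238.8, 268 and 242 CPM in C1HV and at 380.4, 361, 432 and 412 CPM in C1HDT. The lowest library with dox kept (361 CPM) exceeded the highest with dox withdrawn (278 CPM). Psat1 rose by 0.47 on the log2 scale in the moderate sort (SE 0.075, adjusted p = 3.04e-07) and by 0.65 in the high sort (SE 0.077, adjusted p = 6.02e-12). Phgdh, which precedes it in the same pathway, did not pass the test, with log2 differences of -0.09 and -0.25 and intervals of 2 SE from -0.57 to 0.39 and from -0.75 to 0.24. Shmt2 rose in the high sort by 0.25 (SE 0.089, adjusted p = 0.0384), from 144 to 185 CPM in C1HV to 187 to 216 CPM in C1HDT. This call was lost without C1HDT replicate 2, 3 or 4 or C1HV replicate 2 or 3 (adjusted p up to 0.247) and in 6 other settings, among them DESeq2 (0.0783) and RLE size factors (0.0667).

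The 2 sorts were also pooled at day 4, where 13.2% of all genes tested rose and 11.5% fell. Among all called genes 53.5% were higher, and 46.0% with library size only. Psat1 rose by 0.56 (SE 0.054, adjusted p = 3.6e-17), Chac1 fell by 0.72 (SE 0.11, adjusted p = 1.06e-08) and Trib3 fell by 0.37 (SE 0.077, adjusted p = 4.81e-05). Shmt2 rose by 0.16 (adjusted p = 0.0418), and this call was lost in 10 of the 16 fits that left out 1 library of these groups (C1HDT replicate 2, 3 or 4, C1HV replicate 2 or 3, C1MDT replicate 1, 3 or 4 or C1MV replicate 3 or 4, adjusted p up to 0.145) and in 6 other settings. Ddit3 lay just outside the threshold, at -0.22 (SE 0.084, adjusted p = 0.0563 by edgeR), and passed with DESeq2 (adjusted p = 0.0104) and 4 other settings, and in 6 of the 16 fits that left out 1 library (adjusted p from 0.0177 to 0.131 over the 16). For Atf4 the interval of 2 SE ran from -0.07 to 0.11, for Mthfd2 from -0.08 to 0.16 and for Sesn2 from -0.15 to 0.13. The pluripotency markers summed to 1158 to 1545 CPM where dox was withdrawn and to 538 to 727 CPM where it was kept. The formative markers summed to 592 to 682 CPM where it was withdrawn and to 925 to 1092 CPM where it was kept, and the mitochondrial genes to 6869 to 9462 CPM and to 5429 to 8226 CPM. The neural markers summed to 103 to 126 CPM where it was withdrawn and to 156 to 202 CPM where it was kept, and the endoderm markers to 77.4 to 107 CPM and to 118 to 137 CPM, and these 4 marker lists did not overlap. The mitochondrial genes, the mesoderm markers (10.8 to 23.2 CPM and 15.5 to 26.9 CPM) and the fibroblast markers (6.42 to 13.8 CPM and 3.91 to 11.7 CPM) did. Their part in the changes of Chac1, Trib3 and Psat1 was not tested. A test of whether the difference with dox itself differed between the sorts called none of the 10 by edgeR, where 0.0% of all genes were called. At an unadjusted p under 0.05 there were 0, against 8.41% of all genes, and DESeq2 called 0 of the 5 to which it gave an adjusted p, against 2.07% of all genes with one.

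The next comparisons set each of the 4 day 4 groups that had received dox before the sort, called induced here, against C1T, which had TMP without dox. In all 4 comparisons, 6 of the 10 genes had the same call. Atf4 and Sesn2 fell and Ddit3, Asns, Shmt2 and Mthfd2 rose, whether dox was kept or withdrawn, where 7.83% of all genes fell and 8.2% rose in all 4. In C1MDT 5 genes rose and 3 fell, and in C1HDT 5 rose and 2 fell, where 16.9% and 16.5%, and 17.4% and 16.1%, of all genes tested rose and fell. In C1MV 5 rose and 2 fell (15.4% and 14.9% of all genes), and in C1HV 6 rose and 2 fell (13.7% and 14.3%). In C1HV 49.1% of the called genes were higher, and 59.4% with library size only. The 4 comparisons share the C1T libraries, so they are not independent of each other.

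Atf4 stood at 3019, 2978, 2928 and 2935 CPM in C1T and between 1496 and 1979 CPM (median 1802) in the 16 libraries of the induced groups. No induced library came near the C1T range. On the log2 scale Atf4 fell by 0.67 (C1MV), 0.78 (C1HV), 0.70 (C1MDT) and 0.71 (C1HDT) (SE 0.063 to 0.064, adjusted p between 4.09e-22 and 7.72e-18). Sesn2 was also highest in C1T, with 167, 149, 137 and 159 CPM, against 99.2 to 134 CPM (median 119) in the induced libraries. Sesn2 fell by 0.40 (C1MV), 0.30 (C1HV), 0.37 (C1MDT) and 0.36 (C1HDT) (adjusted p between 0.00039 and 0.0134). Its call in C1HV was lost without C1HV replicate 3 or C1T replicate 1 or 4 (adjusted p up to 0.107) and with library size only (0.0760).

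Asns stood at 187, 192, 187 and 185 CPM in C1T and between 268 and 361 CPM (median 293) in the 16 induced libraries, without overlap. Asns rose by 0.77 (C1MV), 0.67 (C1HV), 0.61 (C1MDT) and 0.68 (C1HDT) (SE 0.077 to 0.078, adjusted p between 1.44e-16 and 1.68e-11). Ddit3 stood at 303, 319, 314 and 379.7 CPM in C1T and between 423 and 704 CPM (median 544) in the induced libraries. Ddit3 rose by 0.90 (C1MV), 0.82 (C1HV), 0.65 (C1MDT) and 0.63 (C1HDT) (SE 0.12, adjusted p between 1.23e-06 and 0.000174). The 2 genes therefore stood apart from C1T in every induced group, in the direction opposite to Atf4.

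The mitochondrial folate genes followed the same division with smaller changes. Shmt2 gave 141, 141, 127 and 146 CPM in C1T and between 144 and 216 CPM (median 191) in the induced libraries. Shmt2 rose by 0.44 (C1MV), 0.28 (C1HV), 0.52 (C1MDT) and 0.53 (C1HDT) (adjusted p between 2.8e-07 and 0.0138), and in C1HV the call was lost without C1T replicate 3 (adjusted p = 0.0569). Mthfd2 gave 214, 205, 196 and 198 CPM in C1T and 206 to 285 CPM (median 253) in the induced libraries. Mthfd2 rose by 0.27 (C1MV), 0.30 (C1HV), 0.31 (C1MDT) and 0.33 (C1HDT) (adjusted p between 0.000803 and 0.0106), and in C1MV the call was lost without C1MV replicate 2 (adjusted p = 0.0773).

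The remaining 4 genes did not share 1 call. Trib3 rose against C1T where dox was withdrawn, by 0.61 in C1MV (SE 0.11, adjusted p = 2.72e-06) and 0.55 in C1HV (SE 0.12, adjusted p = 4.59e-05), and did not pass where it was kept (0.20 and 0.22). For Trib3 in C1HDT, leaving out 1 library at a time gave from 0.10 without C1HDT replicate 3 (adjusted p = 0.572) to 0.31 without C1HDT replicate 1 (adjusted p = 0.0414), and it also passed without C1T replicate 4 (0.0472). Chac1 rose in C1HV by 0.60 (SE 0.15, adjusted p = 0.000816), was at 0.34 in C1MV (adjusted p = 0.0794 by edgeR) and fell in C1MDT by 0.44 (SE 0.16, adjusted p = 0.0251). In C1MV Chac1 passed without C1MV replicate 4 (adjusted p = 0.0458) or C1T replicate 2 (0.0466) or 3 (0.0497) and with library size only (0.0358), while the other fits that left out 1 library reached an adjusted p of up to 0.297. The fall of Chac1 in C1MDT was lost without C1MDT replicate 2 or 3 or C1T replicate 2 or 3 (adjusted p up to 0.146). Psat1 rose only where dox was kept, by 0.46 in C1MDT (SE 0.076) and 0.54 in C1HDT (SE 0.076), against differences of -0.01 and -0.11 in C1MV and C1HV that did not pass, and the direct test of kept against withdrawn dox is given above. Phgdh passed in none of the 4 (0.24 to 0.49), and its C1T libraries were spread from 6.23 to 13.8 CPM.

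**Figure D3:**
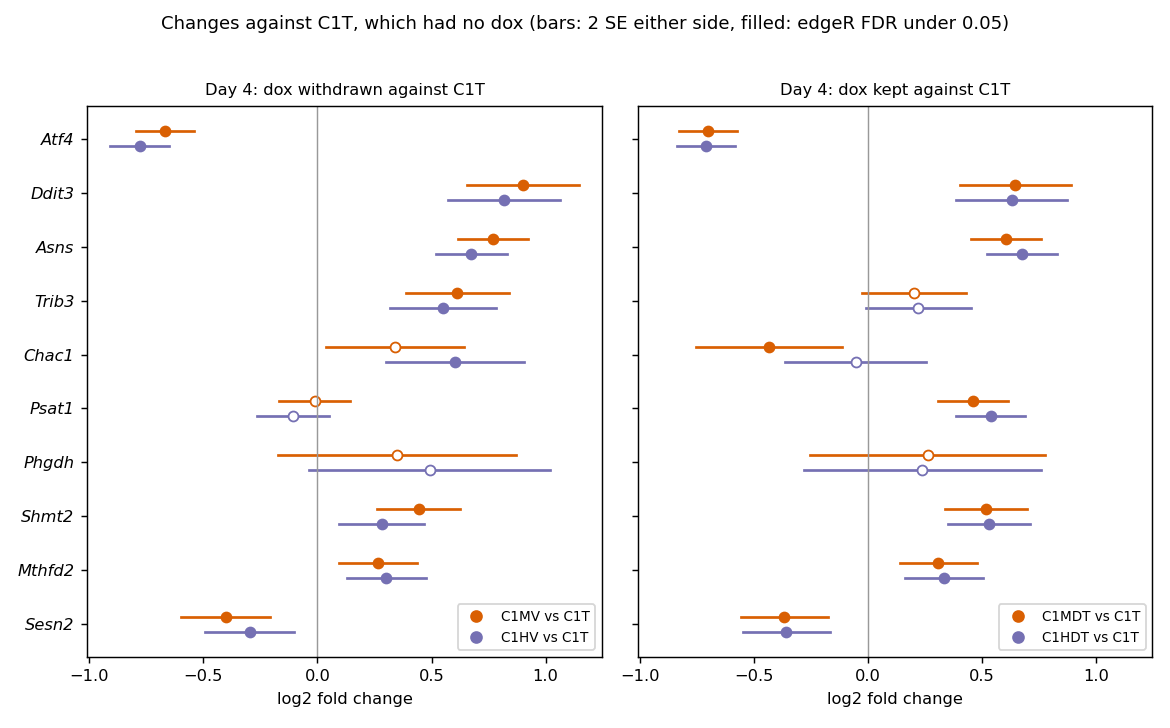
Log2 fold change (x axis) of each gene at day 4 against C1T, for cells with dox withdrawn (left) and kept (right), with lines of 2 SE on either side and filled points where the edgeR adjusted p was under 0.05. Atf4 lay between -0.78 and -0.67 and Asns between 0.61 and 0.77 in all 4 comparisons, while Trib3 passed on the left only and Psat1 on the right only.

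Of the marker lists, the endoderm markers and the mitochondrial transcripts separated all induced libraries from C1T. The endoderm markers summed to 3.26 to 11.2 CPM in C1T and to 77.4 to 137 CPM in the induced libraries. The mitochondrial genes summed to 16261 to 18648 CPM in C1T and to 5429 to 9462 CPM in the induced libraries. The pluripotency markers summed to 823 to 986 CPM in C1T, below the libraries with dox withdrawn (1158 to 1545 CPM) and above those with dox kept (538 to 727 CPM). The formative markers summed to 1086 to 1376 CPM in C1T, above the libraries with dox withdrawn (592 to 682 CPM) and overlapping those with dox kept (925 to 1092 CPM). The neural markers summed to 115 to 141 CPM in C1T, within the range of the induced libraries. The mesoderm markers summed to 19.6 to 24.9 CPM in C1T and 10.8 to 26.9 CPM in the induced libraries, and the fibroblast markers to 2.40 to 8.10 CPM and 3.91 to 13.8 CPM. Their part in the changes of Atf4, Asns, Ddit3, Shmt2, Mthfd2 and Sesn2 was not tested.

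Without dox, most of the genes differed between the days, which also differed in medium. In C1T against C1, 8 of the 10 rose and 1 fell, and of all genes tested 24.4% rose and 24.9% fell. The largest rises among the 10 were those of Phgdh (2.20, SE 0.37, adjusted p = 1.68e-07), Psat1 (1.61, SE 0.087, adjusted p = 2.18e-38), Chac1 (1.57, SE 0.19, adjusted p = 1.26e-12) and Sesn2 (1.13, SE 0.10, adjusted p = 2.36e-19). Mthfd2 rose by 0.87, Shmt2 by 0.69, Trib3 by 0.48 and Atf4 by 0.43. Asns fell by 0.90 (SE 0.077, adjusted p = 2.08e-21), from 337 to 364 CPM in C1 to 185 to 192 CPM in C1T. Ddit3 was at -0.29 (adjusted p = 0.057 by edgeR) and passed with DESeq2 (0.0170), 4 other settings and 1 of the 8 fits that left out 1 library (adjusted p from 0.0252 to 0.164 over the 8).

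An interaction term tested whether the difference between groups with dox and the group that never had it was the same at both days. It set the mean of C1MDT and C1HDT against C1T at day 4 and the mean of C1M and C1H against C1 at day 0. C1MV and C1HV did not enter it, although without dox at day 4 they differed from C1T in the same direction for Atf4, Asns, Ddit3, Shmt2 and Sesn2. With dox kept against withdrawn, pooled over the sorts, Atf4 was at 0.02, Asns at -0.08 and Sesn2 at -0.01, and none of these 3 passed. Of the 10 genes, 7 differed, 3 with a higher and 4 with a lower difference at day 4, where 14.1% and 15.2% of all genes tested did. For Asns the difference was larger at day 4 by 0.48 (SE 0.092, adjusted p = 9.09e-06), for Shmt2 by 0.55 (SE 0.12, adjusted p = 9.62e-05) and for Ddit3 by 0.44 (SE 0.15, adjusted p = 0.0294). For Atf4, which fell at both days, the fall was larger at day 4 by 0.43 (SE 0.077, adjusted p = 1.58e-06). The difference was lower at day 4 for Sesn2 by 0.51 (SE 0.13, adjusted p = 0.000604), for Chac1 by 0.71 (SE 0.23, adjusted p = 0.0124) and for Phgdh by 1.30 (SE 0.43, adjusted p = 0.015). Psat1, higher with dox at both days, did not pass (-0.20, adjusted p = 0.137). The call of Chac1 was lost without C1 replicate 1 or C1T replicate 2 (adjusted p up to 0.0667). That of Ddit3 was lost without C1 replicate 1 or 4 or C1T replicate 1 or 3 (up to 0.0708), and that of Phgdh without C1 replicate 1 or 2 or C1T replicate 3 or 4 (up to 0.0786).

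Other genes of the pathway were followed as lists in the 2 pooled comparisons with dox, in which 16.3% of all genes rose and 14.4% fell at day 0 and 13.2% rose and 11.5% fell at day 4. Of 18 tested further stress response genes, 5 rose and 4 fell at day 0, and 1 rose and 8 fell at day 4 where dox was kept against withdrawn, with a list median of 0.088 and -0.22 on the log2 scale against 0.045 and -0.0092 for all genes tested. Atf3, a transcription factor of the same family, rose at day 0 by 1.15 (SE 0.20, adjusted p = 1.68e-06) and fell at day 4 by 0.89 (SE 0.18, adjusted p = 3.6e-05). Jdp2, a related repressor, fell at both days, by 0.79 and 0.78. Vldlr, the gene of a lipoprotein receptor, rose at day 0 by 1.12, and Cbs, whose enzyme opens transsulfuration, fell by 0.73. Ero1l, which encodes an oxidase of the endoplasmic reticulum, was the 1 gene of this list that rose at day 4 (0.32, SE 0.10, adjusted p = 0.0132). Against C1T, 6 genes of the list rose and 4 fell in C1MDT, 7 and 5 in C1HDT, 8 and 2 in C1MV and 10 and 4 in C1HV. In the same order 16.9%, 17.4%, 15.4% and 13.7% of all genes rose and 16.5%, 16.1%, 14.9% and 14.3% fell.

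Of the 9 amino acid transporters that ATF4 is known to control, 6 rose and 0 fell at day 0 (list median 0.50), where 16.3% of all genes rose and 14.4% fell. The largest rises were those of Slc1a4 (1.10, SE 0.18) and Slc1a5 (0.78, SE 0.089), both carriers of neutral amino acids. At day 4, with dox kept against withdrawn, 13.2% of all genes rose and 11.5% fell. Of the transporters 0 rose and 3 fell there (list median -0.063), among them Slc7a5 (-0.25) and Slc3a2 (-0.18), which together form a transporter of large neutral amino acids. Against C1T, 4 transporters rose and 2 fell in C1MDT, 5 and 2 in C1HDT, 4 and 2 in C1MV and 4 and 1 in C1HV. In the same order 16.9%, 17.4%, 15.4% and 13.7% of all genes rose and 16.5%, 16.1%, 14.9% and 14.3% fell. Of 20 cytosolic tRNA synthetases 3 rose and 5 fell in the pooled comparison at day 0 (list median -0.074) and 8 rose and 3 fell in that at day 4 (0.082). Kars rose by 0.59 and Qars fell by 0.54 at day 0, and Hars rose by 0.43 and Rars fell by 0.25 at day 4. Of 16 further genes of serine, glycine, proline and folate metabolism, 4 rose and 2 fell at day 0 (list median 0.13) and 6 rose and 2 fell at day 4 (0.077). Mthfd1l, a mitochondrial folate enzyme that acts beside Mthfd2, rose at day 4 by 0.51 (SE 0.077, adjusted p = 1.93e-06) and Gcsh, of the glycine cleavage system, by 0.42, while Aldh18a1, of proline synthesis, fell by 0.53.

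Upstream of ATF4, 1 of 16 genes of the eIF2 kinases and their control rose and 4 fell at day 0 (list median -0.012), and 3 rose and 3 fell at day 4 (-0.046). Of all genes 16.3% rose and 14.4% fell at day 0, and 13.2% rose and 11.5% fell at day 4. The day 4 values again set dox kept against withdrawn. Eif2b5, a subunit of the exchange factor of eIF2, fell at day 0 by 0.96 (SE 0.065, adjusted p = 1.63e-26) and rose at day 4 by 0.33. Dele1, which relays mitochondrial stress to the kinase HRI, rose at day 4 by 0.45 (SE 0.079, adjusted p = 1.41e-06). Impact, which restrains the kinase GCN2, fell at both days, by 0.49 (adjusted p = 1.37e-08) and 0.44 (adjusted p = 1.52e-10), and Ppp1r15a, whose product leads to dephosphorylation of eIF2, fell at day 4 by 0.33 (SE 0.095, adjusted p = 0.00498) and was at 0.20 at day 0 (adjusted p = 0.122). Of 12 mitochondrial chaperones and proteases 0 rose and 2 fell at day 0 (list median -0.037), and 4 rose and 1 fell at day 4 (0.21). The protease genes Lonp1 and Clpp rose at day 4 by 0.56 and 0.42, and Hspa9, a mitochondrial chaperone, fell by 0.30. Of 12 genes of mitochondrial transcription and translation 0 rose and 1 fell at day 0 (list median -0.030) and 2 rose and 1 fell at day 4 (0.066). Those at day 4 were Tufm (0.48) and Slirp (0.47), which rose, and Lrpprc (-0.49), which fell. Of 12 tested mitochondrially encoded genes 3 rose and 1 fell at day 0 (list median 0.23), and at day 4 0 rose and 4 fell (-0.20), with mt-Nd4 lower by 0.46 and mt-Nd5 by 0.34.

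Lists that neighbour the pathway were followed in the same pooled comparisons, against C1 at day 0 and with dox kept against withdrawn at day 4. In these, 16.3% of all genes rose and 14.4% fell at day 0 and 13.2% rose and 11.5% fell at day 4. Of 16 chaperone genes of the endoplasmic reticulum 1 rose and 2 fell at day 0 (list median -0.0032), and 8 rose and 2 fell at day 4 (0.19). The largest rises at day 4 were those of Manf (0.55, SE 0.086) and Pdia6 (0.45, SE 0.059), and the 2 that fell were Dnajb9 (-0.75, SE 0.24) and Herpud1 (-0.27, SE 0.090). Of 12 p53 targets 4 rose and 1 fell at day 0 (list median 0.31) and 8 rose and 0 fell at day 4 (0.38), led by Btg2 (0.89, SE 0.10, adjusted p = 6.35e-13) and Bbc3 (0.48, SE 0.099). Against C1T, 3 p53 targets rose and 2 fell in C1MDT and in C1HDT, 0 rose and 5 fell in C1MV and 0 rose and 7 fell in C1HV. In C1MDT, C1HDT, C1MV and C1HV, 16.9%, 17.4%, 15.4% and 13.7% of all genes rose and 16.5%, 16.1%, 14.9% and 14.3% fell. Sesn2, which p53 is also known to control, was at -0.01 in the pooled day 4 comparison (adjusted p = 0.94), and of the 3 sestrin genes 0 passed the test in either pooled comparison (list medians 0.31 and 0.054).

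**Figure D4:**
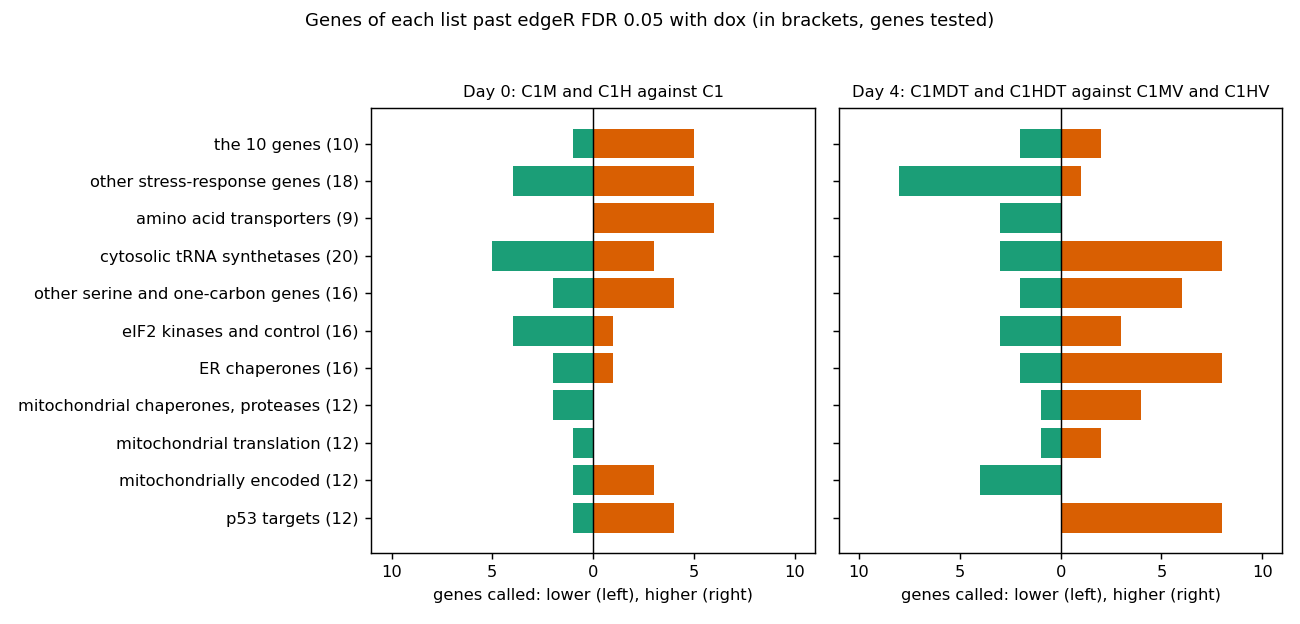
Number of genes (x axis) in each list (y axis, with genes tested in brackets) that passed an edgeR adjusted p of 0.05 upward (right, orange) or downward (left, green) with dox, at day 0 against C1 and at day 4 against cells with dox withdrawn. Of all genes tested, 16.3% rose and 14.4% fell at day 0 and 13.2% rose and 11.5% fell at day 4. At day 4, 8 of 18 further stress response genes were called lower and 1 higher, while 8 of 12 p53 targets were called higher and 0 lower and 8 of 16 chaperones of the endoplasmic reticulum higher and 2 lower.

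Across the 32 libraries the 10 genes did not move as 1 group. Pearson's r of log2 CPM ranged from -0.758 (Asns and Sesn2) to 0.928 (Psat1 and Mthfd2) over the 45 pairs, with a median of 0.465. Atf4 was negatively correlated with Asns (-0.605) and with Ddit3 (-0.573). After the group means were subtracted, r ranged from -0.31 (Asns and Phgdh) to 0.60 (Atf4 and Trib3), and for Atf4 and Asns it was 0.383. These values are descriptions over libraries that share groups, days and scaling. Among genes outside the list whose log2 CPM averaged 3 or more, those most like the members over the same libraries were Map1a for Atf4 (r = 0.917), H1fx for Ddit3 (0.893), Fam129a for Asns (0.961), Tbrg1 for Trib3 (0.92) and B230219D22Rik for Chac1 (0.925). For the remaining genes they were Snrpd2 for Psat1 (0.979), Laptm4b for Phgdh (0.906), Ajuba for Shmt2 (0.969), Dtd1 for Mthfd2 (0.966) and Lmo4 for Sesn2 (0.94).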

How the data were processed

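RNA from 8 groups of 4 cultures was read with QuantSeq 3′ mRNA-seq. According to the labels and the methods of the study, reads were trimmed with bbduk, aligned with STAR to mm10 and counted per gene with htseq-count, and the authors deposited 1 table of raw read counts per library, without normalization. Rows that name no gene (no_feature, 4.72% to 11.2% of all reads in a table, not uniquely aligned, 49.4% to 56.4%, and ambiguous) stayed out of library sizes and tests. Ensembl ids were matched to symbols for 30934 of the 31053 genes.

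Counts were fitted in R 4.3.3 with edgeR 4.0.16 (TMM, robust quasi-likelihood test, 1 fit of all 8 groups, genes with CPM of at least 1 in at least 4 libraries, adjusted p threshold 0.05). The standard error is the size of the log2 fold change divided by the square root of F, and intervals are 2 SE to either side. The fit was tested on simulated data before use. DESeq2 1.42.0, other size factors, other filters, a fit of the compared groups alone, a replicate block and leaving out each library were the alternatives. Samples were grouped by the labels, which call them biological replicates. Nothing in the labels ties cultures with 1 number together across groups, and same-numbered libraries did not deviate together (mean r -0.00163 over 112 pairs, -0.067 to 0.049). Genes outside the 10 were named as those with the largest change in each direction among called genes of each list, at most 2 a direction. The 10 genes and the other lists were chosen with earlier results of these data known. Depth gave 3 counts a value of 0.822 to 2.19 CPM, which covers counting error only.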

Additional observations from a re-analysis of the deposited data

Results flagged for a closer look

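Within groups of 4 libraries, Dixon's test at the 95% level, which chance passes in about 1 of 20 groups, marked 4 values among the 10 genes. It was run on 80 sets, each gene in each group, so 4 is about the number that this rate gives. Trib3 had its lowest C1MDT library at 72.6 CPM, Chac1 its highest C1 library at 15.3 CPM, Mthfd2 its highest C1 library at 138 CPM and Sesn2 its highest C1H library at 89.5 CPM. The Chac1 and Mthfd2 values are those of the same library, C1 replicate 4.

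The difference between groups with dox and the group that never had it differed between the days by the interaction term in edgeR for 7 genes. It set the mean of C1MDT and C1HDT against C1T at day 4, without C1MV and C1HV, and the mean of C1M and C1H against C1 at day 0. Day 4 minus day 0, on the log2 scale, it was -0.43 for Atf4, 0.44 for Ddit3, 0.48 for Asns, -0.71 for Chac1, -1.30 for Phgdh, 0.55 for Shmt2 and -0.51 for Sesn2. What these differences come from was not tested.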

How the results depend on the processing

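Over the 14 comparisons, 73 of 140 changes of the 10 genes passed the test, of which 17 were lost under at least 1 alternative and 56 passed under each that gave a value. Of those, 4 changes of Phgdh had no value under the filter that asks for 1 CPM in each library, which Phgdh did not pass. The share of all genes called ran from 0.0% in the test between the sorts to 24.4% up and 24.9% down in C1T against C1. The 73 calls therefore have no single share to be set against, and the shares of each comparison in the main fit are given above. Leaving out 1 library at a time gave 4 to 7 called genes in C1M vs C1, 0 to 1 in C1H vs C1M, 2 to 4 in C1HDT vs C1HV, 3 to 5 in the pooled day 0 comparison and 4 to 7 in the comparison between days. In C1H vs C1M, DESeq2 called 2, no filter on low counts 1 and a fit of only the groups compared 2, against 0. The cause was not tested. No called change reversed. In 21 changes of the 10 genes the sign differed in 69 recomputed values, none of them called and none larger than 0.068 on the log2 scale. The replicate block gave the same member counts as without it, for example 7 in C1M vs C1, and changed no call. Phgdh is limited by depth, with as few as 1 read in a library.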
